A study of Mus musculus with 6 samples.

Results

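The Integrator complex subunit genes Ints1 to Ints10 were examined for their splicing scores in mouse cortical neurons. They were taken as the rows whose symbol equals one of these 10 names, and all 10 were present among the 15705 scored genes. Neurons from C57BL/6 embryos at embryonic day 18 were grown in culture for 7 days and then exposed to lentivirus for 3 days. The N40K group (3 libraries) received FCK1.3GW-N40K, in which the short CaMKII promoter drives N40K, the amino-terminal fragment of the U1 snRNP protein U1-70K. The control group (3 libraries) received the vector FCK1.3GW, in which the same promoter drives EGFP. The promoter is active mainly in excitatory neurons, while the RNA came from the whole culture, and fewer cells of a type and less RNA per cell cannot be told apart in such bulk samples. The labels do not say whether replicates were separate cultures, so p-values here reflect the spread among 6 libraries, and that spread may be technical. A score is a ratio within a gene and not an expression level, so cell type markers could not be used to check the label of the culture.

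Integrator is a nuclear complex that travels with RNA polymerase II. It is best known for cutting the nascent transcripts of U snRNA genes, including U1, to form their 3 prime ends, and it also ends transcription early at many protein-coding genes. The complex joins a cleavage module, a phosphatase module that holds PP2A, a central scaffold and smaller modules, as worked out mainly in human and fly cells. The series asks how disturbed U1 snRNP function affects neurons, and the question here is whether the transcripts of the machinery that makes U snRNA changed in their own splicing score. The deposited score is named Sd, read here as splicing deficiency, and a higher value is taken to stand for less complete splicing. Its formula is not given in the sources used here, and it cannot tell more unspliced RNA from less spliced RNA.

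Because U1 pairs with the end of an exon and the start of the intron that follows, an exon junction is shown for each of the 4 members that passed the test, across the longest intron that has at least 15 coding bases on each side. Sequences are those 15 bases from each side in GENCODE M21 transcripts (GRCm38), with the last 3 bases of the upstream exon in capitals.
Ints5, exons 1 and 2: tcccgcgcctctCAGtgctcaggagctgtc
Ints4, exons 15 and 16: ggaattcaccatCAGagatctgcaaagact
Ints6, exons 4 and 5: ggtgtccaggatGAGcttcatttacctctg
Ints8, exons 2 and 3: catactggagaaAAGcctgtctgttccggt
The Ints5 junction is the only one that gene has, across an intron of 1610 bases, whereas the Ints6 junction spans an intron of 27426 bases. All 4 upstream exons shown end in AG. At the junction picked by the same rule, Ints1, Ints2 and Ints3 also end in AG, and Ints7, Ints9 and Ints10 do not. Over all exon ends of a gene the AG share was 59.1% in Ints4, 82.4% in Ints6 and 40.7% in Ints8, the lowest of any member. Among all 217 exon ends before an intron in the 10 members, 130 end in AG (59.9%), beside 56.2% of the 157548 such ends in all annotated scored genes. The letters AG were searched only as the last bases of the exon, on the transcribed strand, and the intron side was not used here.

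Ints4, Ints6 and Ints8 rose and Ints5 fell in N40K neurons, and the other 6 members did not pass the test. "Rose" and "fell" refer to scores as deposited, tested as log2(score + 0.01) with limma, with Benjamini-Hochberg adjusted p under 0.05 over all 15705 genes. The 3 rises stand beside 21.5% of all genes that rose, and the single fall beside 4.11% of all genes that fell; 4 of 10 called in either direction stand beside 25.6% of all genes. A share of 3 in 10 is near that background, so it is not a result about Integrator. The division of all genes into rises and falls moved with scaling between libraries: with libraries set to a common median 9.75% rose and 18.4% fell. The median log2 change was 0.10 for the 10 members and 0.06 for all genes. By the annotation Ints6, Ints7, Ints9 and Ints10 have 10 to 19 introns, and Ints1, Ints2, Ints3, Ints4 and Ints8 have 20 or more. Among all annotated genes of these 2 classes the median was 0.08 and 0.11, and 26% and 39.4% rose. The N40K libraries were all higher than the control libraries in 5 members (33.6% of all genes) and all lower in 1 member (8.67% of all genes). The mean score was higher in N40K neurons for 9 members, beside 10524 of all 15705 genes, and Ints5 was the exception.

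**Figure D1:**
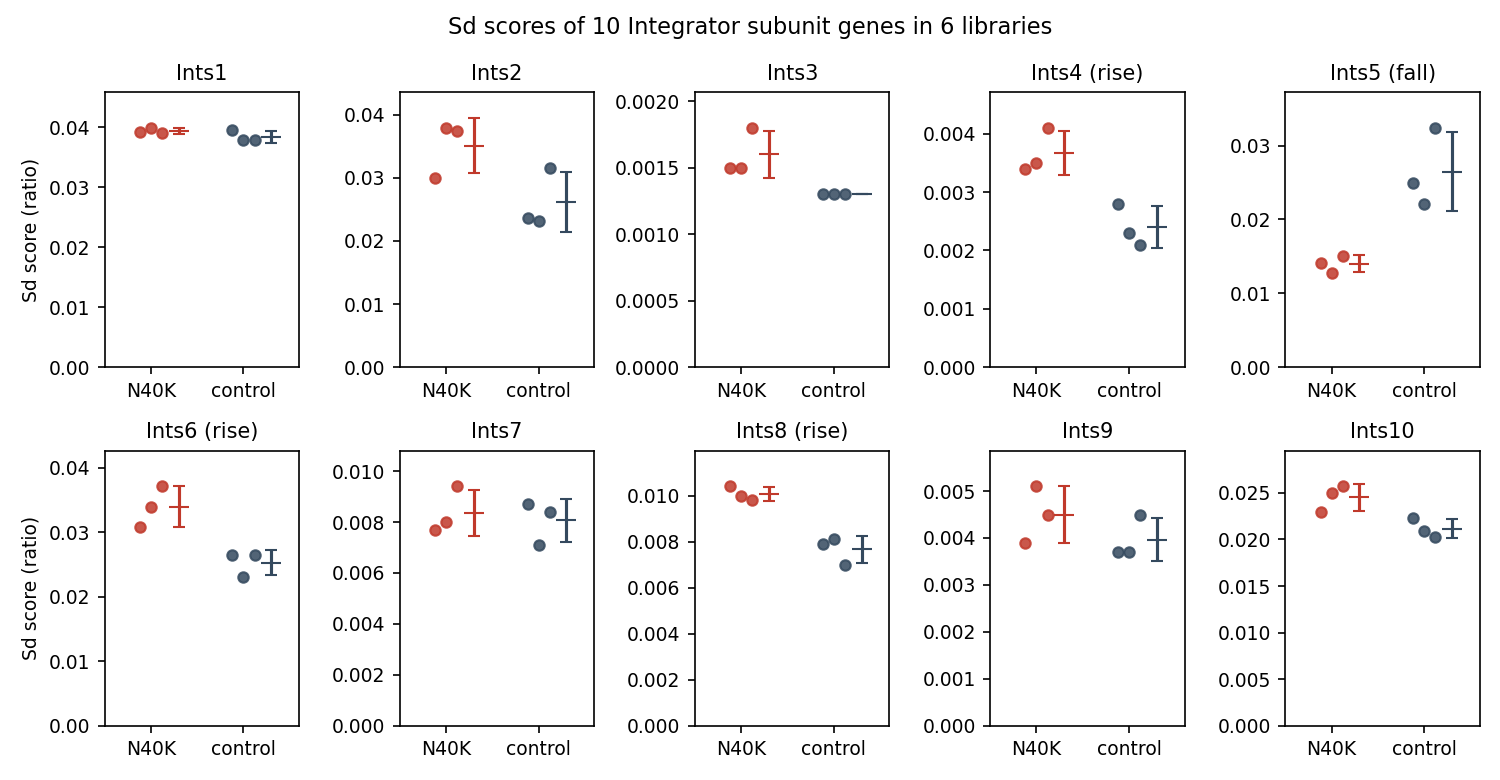
Sd score (ratio, vertical axis from 0, scaled separately for each gene) of each member in the 3 N40K and the 3 control libraries; points are libraries and bars are mean ± SD. The N40K points lie below the control points for Ints5 and above them for Ints3, Ints4, Ints6, Ints8 and Ints10, with overlap in the other 4 genes.

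Ints5, on chromosome 19, encodes a structural subunit of the complex that sits beside Ints8. Its score was 0.0141, 0.0128 and 0.0151 in the N40K libraries, against 0.0249, 0.0221 and 0.0324 in the control libraries. The groups did not overlap, and the highest N40K score was well under the lowest control score. The mean fell to 0.014 ± 0.00115 in N40K neurons, against 0.0265 ± 0.00533 in control neurons (SD, n = 3 each), a ratio of 0.529. The log2 change was -0.59 ± 0.11 (SE; limma adjusted p = 0.0168). Without N40K replicate 2 the change was -0.56 and the adjusted p 0.0579, so the call ended there. In the settings that rescale the libraries the call held, and without a pseudocount the log2 change was -0.90 (limma adjusted p = 0.0132).

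Since a ratio of 2 scores within a library does not move with a scaling factor, Ints5 was also set against the geometric mean of the other 9 members; this measure was chosen after its values were seen. Ints5 was 1.37, 1.14 and 1.28 times that mean in the N40K libraries, against 2.68, 2.56 and 3.53 times in the control libraries. The ratios of the groups did not overlap, but the values already given fixed this in advance. Every N40K library had a lower Ints5 score and a higher mean of the other 9 members than every control library. The ratio is therefore the same result in another form and no separate evidence. The other 9 members together were 0.706, 0.731 and 0.721 times the library median in N40K neurons, against 0.682, 0.68 and 0.69 times in control neurons.

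Ints5 is also the only member with a single intron by the annotation; the others have between 16 introns (Ints9 and Ints10) and 46 introns (Ints1). Of the 951 annotated genes with 1 intron, 11.9% rose and 6.41% fell, whereas of the 2001 genes with 20 or more introns 39.4% rose and 1.1% fell. Among those 951 genes, 57 had a lower log2 change than Ints5. The control score of Ints5 was above that of 35.4% of them. These shares are descriptions across genes, which are not independent replicates, and the part of intron number in the Ints5 result was not tested. By the annotation Ints5 overlaps Gm49416 on the same strand, so reads in the shared stretch could count for either gene. The same holds for Ints1 with Mir7037, Ints4 with Gm24412, Ints7 with Gm37349 and Ints10 with Gm15549. Ints6 and Ints8 overlap protein-coding genes on the other strand, Serpine3 and Ccne2, and Ints2 overlaps the antisense gene Brip1os; whether strand was used in the score is not stated.

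**Figure D2:**
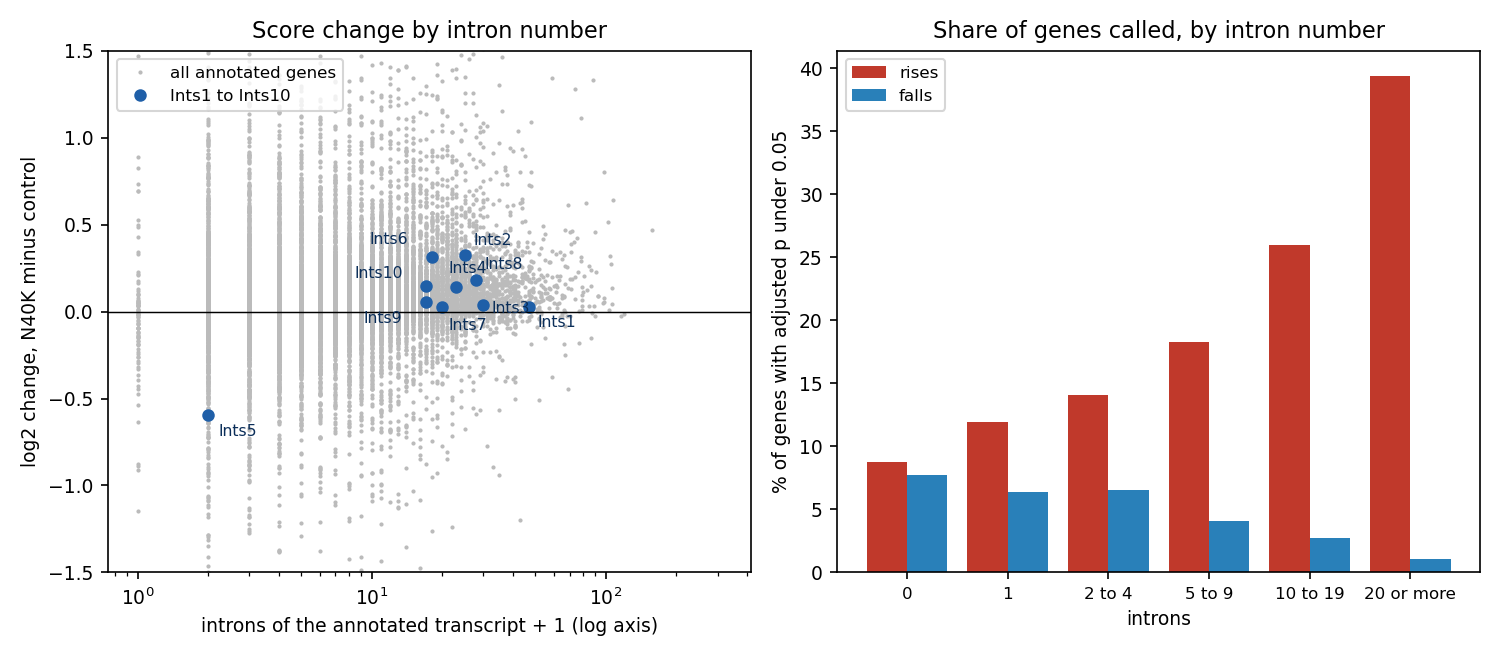
Left, log2 score change (N40K minus control) against the number of introns plus 1 (log axis) for all annotated genes in grey and the 10 members in blue; 136 genes beyond 1.5 in either direction lie outside the plotted range. Right, the percentage of genes in each intron class that rose (red) or fell (blue); Ints5 sits in the class with 1 intron, where 11.9% rose and 6.41% fell.

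Ints6 and Ints8 encode the subunits that contact PP2A and hold this phosphatase near the polymerase. Ints6, on chromosome 14, scored 0.0308, 0.0339 and 0.0371 in the N40K libraries, against 0.0264, 0.023 and 0.0264 in the control libraries. Every N40K library was above every control library. The mean was 0.0339 ± 0.00315 in N40K neurons and 0.0253 ± 0.00196 in control neurons (SD, n = 3 each), a ratio of 1.34, with a log2 change of 0.32 ± 0.08 (SE; limma adjusted p = 0.0397). Ints8, on chromosome 4, scored 0.0104, 0.01 and 0.0098 in the N40K libraries, against 0.0079, 0.0081 and 0.007 in the control libraries. Again the groups did not overlap. The mean rose to 0.0101 ± 0.000306 in N40K neurons, against 0.00767 ± 0.000586 in control neurons, a ratio of 1.31 and a log2 change of 0.18 ± 0.04 (limma adjusted p = 0.0236). Both calls ended when any library other than N40K replicate 1 was left out, with adjusted p-values of 0.0863 to 0.115 for Ints6 and 0.0501 to 0.0758 for Ints8. With libraries set to a common median, the log2 changes were 0.19 for Ints6 and 0.05 for Ints8, and neither passed (limma adjusted p = 0.079 and 0.488). Quantile normalization gave 0.19 and 0.07 (limma adjusted p = 0.0829 and 0.363). Subtracting from each library its median deviation over genes gave 0.25 and 0.12 (limma adjusted p = 0.051 and 0.119).

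Ints4, on chromosome 7, is the scaffold of the cleavage module, where it holds Ints9 and the nuclease Ints11. It scored 0.0034, 0.0035 and 0.0041 in the N40K libraries, against 0.0028, 0.0023 and 0.0021 in the control libraries. The groups were separate. The mean was 0.00367 ± 0.000379 in N40K neurons and 0.0024 ± 0.000361 in control neurons (SD, n = 3 each). This ratio of 1.53 was the highest among the 10 members. On the log2(score + 0.01) scale the change was 0.14 ± 0.03 (SE; limma adjusted p = 0.0229), and without a pseudocount it was 0.62, since these scores lie under the pseudocount. The call ended without control replicate 2 or 3 and without N40K replicate 2 or 3 (limma adjusted p between 0.0529 and 0.0785), with the eBayes trend off (0.0553) and with libraries set to a common median (log2 change 0.01, adjusted p = 0.795). Quantile normalization left a log2 change of 0.066 (limma adjusted p = 0.0842). Subtracting from each library its median deviation over genes left 0.075 (limma adjusted p = 0.0655).

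Ints9, on chromosome 14, is the inactive partner of the nuclease. It scored 0.0039, 0.0051 and 0.0045 in the N40K libraries, against 0.0037, 0.0037 and 0.0045 in the control libraries, and the groups overlapped. Its ratio of means was 1.13, and the 95% interval of its log2 change ran from -0.04 to 0.15 (limma adjusted p = 0.386). Ints11 itself, which the table lists as Cpsf3l, scored 0.0257, 0.026 and 0.0263 in the N40K libraries, against 0.0252, 0.0255 and 0.0255 in the control libraries. The groups were separate by 0.0002, and the 95% interval of the log2 change ran from -0.11 to 0.15 (limma adjusted p = 0.79). The counterparts of this module in mRNA processing, Cpsf2, Cpsf3 and Sympk, had log2 changes of 0.07, 0.05 and 0.11. Of these 3 genes 0 passed limma's test (unadjusted p between 0.101 and 0.319), beside 25.6% of all genes.

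The scaffold subunits Ints1, Ints2 and Ints7 did not pass the test. Ints1, the largest subunit, on chromosome 5, scored 0.0392, 0.0399 and 0.0391 in the N40K libraries, against 0.0396, 0.0378 and 0.0379 in the control libraries. These were the highest mean scores of any member, with the smallest relative spread in N40K neurons (1.11% of the mean), and the 95% interval of the log2 change ran from -0.11 to 0.17. Ints2, on chromosome 11, scored 0.03, 0.0379 and 0.0374 in the N40K libraries, against 0.0236, 0.0232 and 0.0316 in the control libraries. N40K replicate 1 lay under control replicate 3, so the groups overlapped. The log2 change of Ints2, 0.32 ± 0.12 (SE), was as large as that of Ints6, but its adjusted p was 0.113 with limma. Ints7, on chromosome 1, scored 0.0077, 0.008 and 0.0094 in the N40K libraries, against 0.0087, 0.0071 and 0.0084 in the control libraries. Its groups overlapped almost fully, with an interval from -0.11 to 0.16.

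Ints3 and Ints10 had separate groups without passing the test. Ints3, on chromosome 3, is shared with the SOSS complex, which binds single-stranded DNA during repair. It scored 0.0015, 0.0015 and 0.0018 in the N40K libraries, against 0.0013 in all 3 control libraries. These were the lowest scores of any member, only a few steps of the last deposited decimal apart, and the log2 change was 0.04 ± 0.01 (SE; limma adjusted p = 0.0967). With libraries set to a common median the Ints3 change turned to -0.09 and passed as a fall (limma adjusted p = 0.0346). The median change of all genes was itself -0.07 in that setting. After subtracting from each library its median deviation over genes, the Ints3 change was -0.03 and did not pass (limma adjusted p = 0.211). Ints10, on chromosome 8, forms a module with Ints13 and Ints14. It scored 0.0229, 0.025 and 0.0257 in the N40K libraries, against 0.0223, 0.0209 and 0.0203 in the control libraries, a ratio of 1.16 with an adjusted p of 0.146 with limma.

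**Figure D3:**
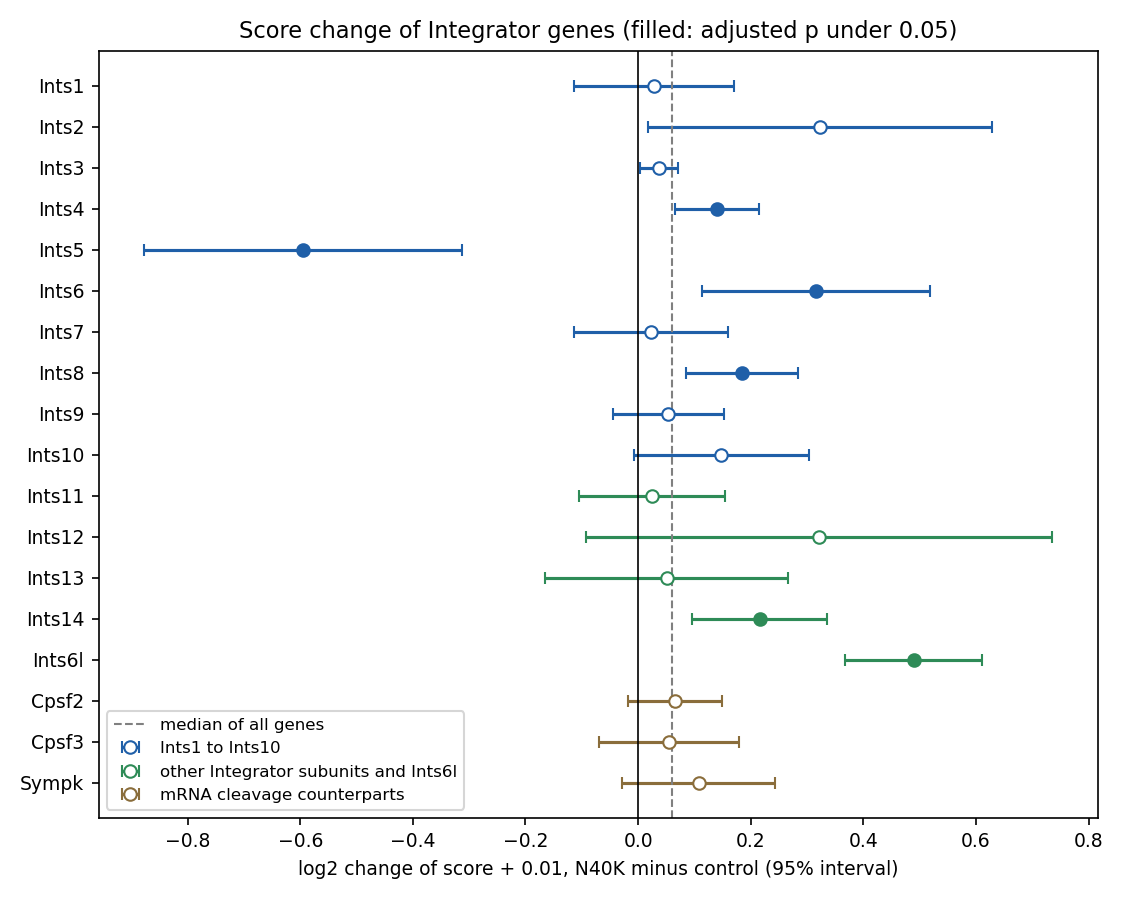
Log2 change of score + 0.01 (N40K minus control, horizontal axis) with its 95% interval for the 10 members (blue), 5 further Integrator genes (green) and 3 mRNA cleavage genes (brown); filled points passed the test, and the dashed line is the median of all genes, 0.06. Ints5 lies alone on the left at -0.59, and Ints6l lies farthest to the right at 0.49.

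Members differed far more from each other than between the groups. The highest mean score, that of Ints1, was 24.6 times the lowest, that of Ints3, in N40K neurons and 29.6 times in control neurons. As a rank among all genes in control neurons, 5 members lay above the median and 5 below it. Ints5 moved most in rank, to percentile 47.2 in N40K neurons, against percentile 64.5 in control neurons. Ints2 and Ints6 moved up, to percentiles of 67.5 and 66.9 in N40K neurons, against 64.3 and 63.6 in control neurons. Ints4 moved up to percentile 16.5 in N40K neurons, against 13.3 in control neurons. Among the 10 members 5 moved up in rank and 5 moved down. Ints1 with 46 introns and Ints3 with 29 introns were at opposite ends of the members. Over all annotated genes the median control score fell with each higher intron class, from 0.344 without introns to 0.00683 with 20 or more. The part of intron number in the scores of the members was not tested.

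Of 5 further Integrator genes with a row, Ints14 and Ints6l rose and 3 did not pass, beside 21.5% of all genes that rose; with so few genes the count says nothing of the list. Ints6l, a paralogue of Ints6 that the table lists as Ddx26b, scored 0.0156, 0.0141 and 0.016 in the N40K libraries, against 0.0081, 0.0083 and 0.0075 in the control libraries. Its ratio of 1.91 was above that of any of the 10 members, and the log2 change was 0.49 ± 0.05 (SE; limma adjusted p = 0.00337). This call held under each of the 16 other settings tried, the rescaled ones included. Ints14, listed as 2010321M09Rik, scored 0.0124, 0.011 and 0.0126 in the N40K libraries, against 0.0095, 0.0085 and 0.0088 in the control libraries (limma adjusted p = 0.0256). The Ints14 call ended without any 1 library other than N40K replicate 2 (highest adjusted p = 0.0864) and with libraries set to a common median (0.226). Quantile normalization left a log2 change of 0.09 for Ints14 (limma adjusted p = 0.185). Subtracting from each library its median deviation left 0.15 (limma adjusted p = 0.0601). Ints12, which carries a PHD finger and contacts Ints1, scored 0.006, 0.007 and 0.0146 in the N40K libraries, against 0.0056, 0.004 and 0.0057 in the control libraries (limma adjusted p = 0.223). N40K replicate 3 stood far above its group there. Ints13, listed as 4933424B01Rik, had overlapping groups and a ratio of 1.06. Partners of the complex were the SOSS genes Nabp1, Nabp2 and Inip, the PP2A genes Ppp2ca and Ppp2r1a, and Brat1 and Wdr73. Of these 7 genes 0 passed limma's test, beside 25.6% of all genes. An unadjusted limma p under 0.05 was found for 2, Nabp1 and Wdr73 (ratios of 1.37 and 1.14), beside 6047 of all 15705 genes.

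Genes that act before and after Integrator in making U snRNA were described in the same fit. Of 16 genes of snRNA transcription, 4 rose and 1 fell, with a median log2 change of 0.15. These shares, 25% and 6.25%, are near those of all genes, 21.5% and 4.11%. Snapc5, a subunit of the SNAPc complex that binds snRNA promoters, scored 0.0138, 0.0126 and 0.0148 in the N40K libraries, against 0.0033, 0.002 and 0.0029 in the control libraries. The groups were far apart, with a ratio of 5.02 and a log2 change of 0.90 ± 0.06 (SE; limma adjusted p = 0.00154). Snapc3, another SNAPc subunit, Tbp, the TATA-binding protein gene, and Rpap2, a phosphatase of the polymerase tail, rose with ratios of 1.49, 1.36 and 1.34. Zfp143, an activator of snRNA promoters, fell to 0.0016 ± 0.000173 in N40K neurons, against 0.00243 ± 0.000208 in control neurons (limma adjusted p = 0.0151). All its scores lie well under the pseudocount, with 0.0018 the highest in N40K and 0.0022 the lowest in control libraries. Of 9 genes of snRNA export and maturation, 2 rose and 0 fell, and 22.2% is likewise near the 21.5% of all genes. They were Snupn, the import adaptor of capped snRNA, with a ratio of 1.76 (limma adjusted p = 0.00365), and Ncbp1, a cap-binding protein gene, with a ratio of 1.68 (0.0149). The calls of Snapc5 and Snupn held under all 16 other settings. The other 5 were lost without certain libraries: Snapc3 without control replicate 1 or 2 or N40K replicate 2 (limma adjusted p up to 0.0596), Tbp without any library (up to 0.12), Rpap2 without any library other than N40K replicate 1 (up to 0.102), Zfp143 without control replicate 1 or 3 (up to 0.059), and Ncbp1 without control replicate 2 or 3 (up to 0.0578). Setting libraries to a common median also ended the calls of Tbp (0.156) and Rpap2 (0.492). Quantile normalization ended them too (limma adjusted p = 0.193 and 0.273). So did subtracting from each library its median deviation over genes (limma adjusted p = 0.0763 and 0.107). The replicate number as a block ended the calls of Tbp (limma adjusted p = 0.103), Rpap2 (0.0594) and Zfp143 (0.0685). With the eBayes trend off the Zfp143 call ended as well (limma adjusted p = 0.0645).

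Whether the rises passed depended on scaling between libraries. Library medians averaged 0.0154 ± 0.000854 in N40K neurons and 0.0132 ± 0.000458 in control neurons (SD, n = 3 each), a shift of 0.13 on the log2 scale, which is larger than the median change of the members. With libraries set to a common median, 0 members rose and 2 fell, Ints3 and Ints5, beside 9.75% of all genes that rose and 18.4% that fell, so 2 falls in 10 is near that background. After quantile normalization 0 members rose and 1 fell, Ints5, beside 12.9% and 12% of all genes. Subtracting from each library its median deviation over genes also gave 0 rises and 1 fall, Ints5, beside 14.2% and 9.67% of all genes. In these 3 settings Ints1, Ints3, Ints7 and Ints9 had negative log2 changes, none of which had passed as a rise, while Ints2, Ints4, Ints6, Ints8 and Ints10 stayed positive. The median log2 change of all genes was itself negative in these settings, at -0.07, -0.02 and -0.01 in the order given.

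**Figure D4:**
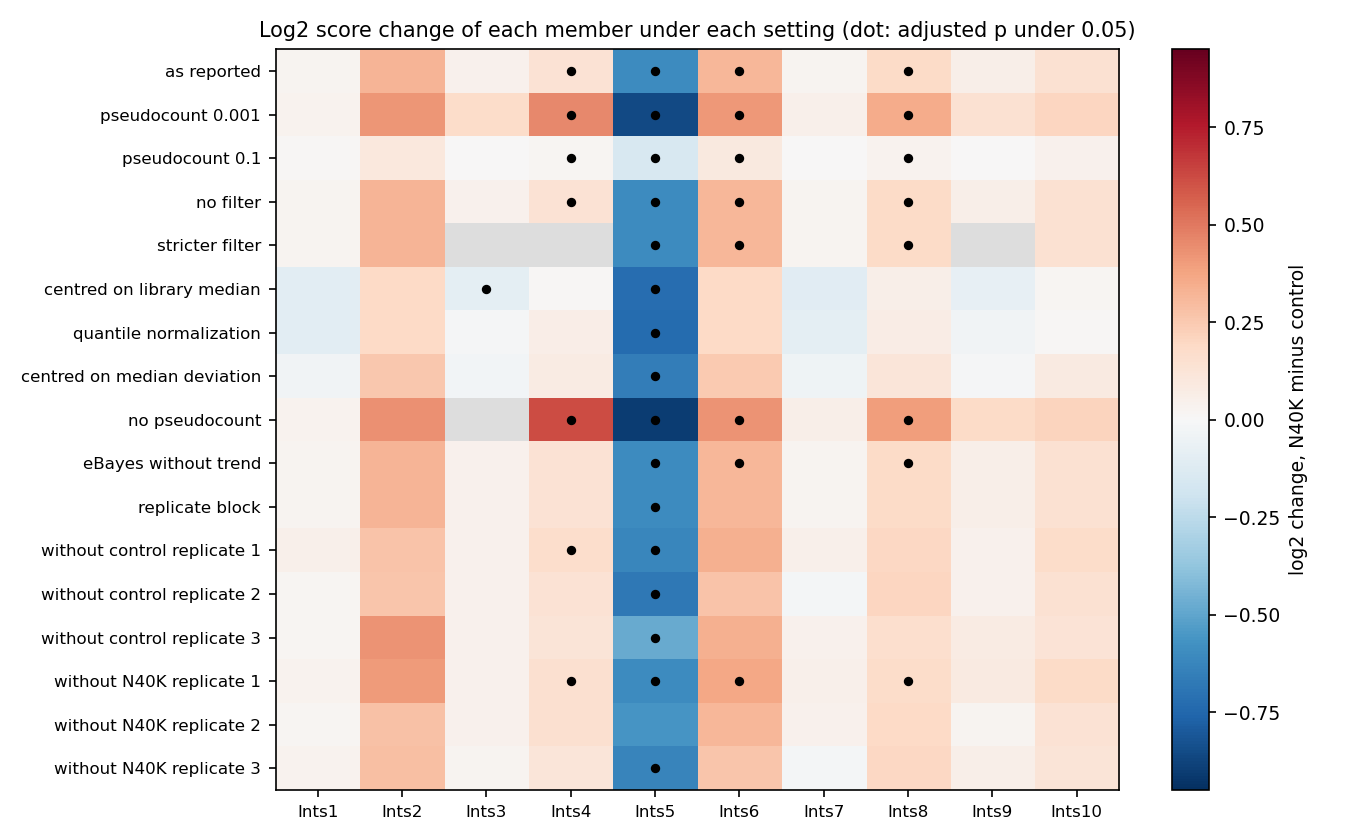
Log2 change (N40K minus control, colour) of each member (columns) under the reported fit and 16 other settings (rows); a black dot marks an adjusted p under 0.05, and a plain grey cell is a gene that setting did not test. Ints5 is blue in every row and passed in all but the row without N40K replicate 2, while the dots of Ints4, Ints6 and Ints8 are absent from the 3 rescaled rows.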

How the data were processed

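Libraries were prepared from poly(A) RNA with a strand-preserving kit and read as 100-nt pairs, per the labels' protocols. CASAVA, STAR, BWA, bedtools 2.16.1 and the build mm9 appear in the submitters' processing notes, without a role. The authors deposited 1 ratio per gene and library, the Sd score, with 4 decimals and none at 0. Sources used here give neither its formula, filters and use of strand nor the read depth, so no interval that needs depth is printed.

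The test was limma 3.58.1 (R 4.3.3; lmFit, eBayes with trend, 2-sided, Benjamini-Hochberg over 15705 genes) on log2(score + 0.01), a scale that understates changes of low scores. A filter (above 0 in at least 3 libraries) removed no gene, and 0 columns of values were unused. The members and lists were chosen with earlier results of these data known. Named were all members, all genes of the further Integrator and cleavage lists, the called genes of the other lists and Snrnp70. Lists were matched by Ensembl identifier; Ints15 had no match. Intron numbers came from GENCODE M21 (GRCm38), matched for 14914 genes (95%); since the builds differ, no coordinates are printed. In simulated data for this comparison, 200 of 15705 genes were changed. Limma recovered 28% of those changed by 0.25 (log2), 50% by 0.5, 74% by 1 and 76% by 2, and called 7 unchanged genes. The reported fit called 4017 genes and has a shift of library medians that the simulation lacks, so these rates need not hold for it. The other settings used a pseudocount of 0.001, 0.1 or none (mean score of at least 0.002), the whole table unfiltered or without its lowest 25%, 3 ways of rescaling, eBayes without trend, the replicate number as a block, and each library left out.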

Additional observations from a re-analysis of the deposited data

How the results depend on the processing

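The 4 calls among the members moved to 2 after centring on the library median, to 1 after quantile normalization and to 1 after subtracting the median deviation. With a library left out they numbered between 0 and 4, the 0 being without N40K replicate 2. In that fit 5 members had an unadjusted limma p under 0.05, beside 5267 of all 15705 genes. Calls among all genes numbered 2424 there. For all genes the 4017 calls moved to 2451 under the stricter filter and to between 1947 and 4215 with a library left out. Calls among the further Integrator genes and partners (2) moved to 1 after quantile normalization and 1 after subtracting the median deviation, to 3 with the eBayes trend off, and to between 1 and 2 with a library left out. Centring on the library median also gave 2, as 1 rise and 1 fall. Calls among the snRNA genes (7) moved to between 3 and 7 with a library left out. Calls among the pausing and cleavage genes (1) moved to 2 after centring on the library median, 2 after quantile normalization and 2 with the eBayes trend off.

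With the replicate number as a block, calls moved to 2098 for all genes, 1 for the members, 1 for the further Integrator genes and partners and 4 for the snRNA genes. Libraries with the same number did not deviate together (r = -0.07, 0.04 and -0.02 across genes). Of the N40K libraries, only replicate 2 correlated best with the control library of its own number.

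Direction turned for genes that had not passed. Centring on the library median gave log2 changes of -0.102 for Ints1, -0.0927 for Ints3, -0.107 for Ints7, -0.0766 for Ints9, -0.106 for Cpsf3l, -0.0797 for 4933424B01Rik, -0.0645 for Cpsf2, -0.0756 for Cpsf3, -0.0229 for Sympk and -0.0535 for Snrnp70. Quantile normalization gave -0.101, -0.0112, -0.0893, -0.0335, -0.118, -0.0905, -0.0503, -0.0506, -0.0331 and -0.0627 for the same genes. Subtracting the median deviation gave -0.0368 for Ints1, -0.0278 for Ints3, -0.0418 for Ints7, -0.0117 for Ints9, -0.0412 for Cpsf3l, -0.0148 for 4933424B01Rik and -0.0107 for Cpsf3. The median change of all genes in these rescaled settings was -0.0708, -0.024 and -0.00587, in the same order. Ints7 lay between -0.0164 and 0.0498 and 4933424B01Rik between -0.0149 and 0.127 with a library left out. The cause of these changes was not tested. The last decimal limits Ints3, and the unknown depth limits all scores. The stricter filter left out Ints3, Ints4 and Ints9, and the fit without a pseudocount left out Ints3.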

Other observations

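Genes that hold RNA polymerase II near promoters, where Integrator also acts, or release it (Cdk9, Ccnt1 and Ccnt2) were listed beside the members. Of these 9 genes 1 rose and 0 fell, beside 21.5% and 4.11% of all genes. Nelfa, a subunit of the pausing factor NELF that the table lists as Whsc2, scored 0.0236, 0.0268 and 0.0311 in the N40K libraries, against 0.0155, 0.0144 and 0.0131 in the control libraries. The groups were separate, with a ratio of 1.9 (limma adjusted p = 0.00845), and the call held under all 16 other settings.

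Of 17 markers of glia, microglia and vessels, 12 had a score, 1 rose and 0 fell, also beside 21.5% and 4.11% of all genes. Csf1r, a receptor of microglia, had a ratio of 2.76 (limma adjusted p = 0.0131), a call that ended without control replicate 3 (0.0536). Scores do not give the level of these markers, and their part in the results was not tested. Snrnp70, the gene of U1-70K, scored 0.0242, 0.0224 and 0.0234 in the N40K libraries, against 0.0215, 0.021 and 0.0223 in the control libraries, and did not pass (limma adjusted p = 0.376).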
